A study of Penicillium oxalicum with 9 samples.

Results

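The comparison described here is of the Penicillium oxalicum strain dPoflbC, labelled as a deletion of PoflbC, with the strain dCA, labelled as a deletion of CA, on cellulose. It uses the 3 dPoflbC and the 3 dCA libraries, 6 of the 9 in the study, and all 9786 genes of the deposited table. Penicillium oxalicum is a mould whose secreted enzymes degrade the polymers of plant cell walls. Mycelia of every strain were grown for 22 h in Vogel's medium with 2% glucose, kept for 2 h without a carbon source and then held for 4 h with 2% cellulose, at 30 °C and 200 rpm. RNA was sequenced from biological triplicates. The other 3 libraries are of dPoClrC, a strain labelled as a deletion of PoClrC. All 3 strains carry a deletion, no library of an unmutated strain was analysed here, and the labels do not say what CA is. So a gene that is higher in dPoflbC could equally be called lower in dCA. The annotation names neither deleted gene, and the absence of its transcript was not checked.

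Fungi that grow on plant polymers release short sugars from cellulose, hemicellulose and starch with secreted hydrolases, and transcription factors switch these genes on when the polymer is present and glucose is not. In the related Aspergillus nidulans, FlbC is a zinc finger protein that acts before BrlA, the central activator of asexual spore formation. Ribosome production, by contrast, takes up much of the transcription of a growing hypha.

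Reads assigned to genes numbered 6.49 to 7.76 M per library. The 10 genes with most reads took 5.53% to 6.13% of them in dPoflbC and 9.90%, 15.7% and 11.2% in dCA replicates 1, 2 and 3. On the first principal component, with 87.7% of the variance, the strains separated, and on the second, with 7.68%, dCA replicate 2 lay at 34 and dCA replicates 1 and 3 at -23.7 and -14. Whether this library's difference comes from the culture or from its handling was not tested. Some of the results that rest on it are given with and without it, and others only by library. Levels are given as the deposited RPKM, which are reads per kilobase of coding length and M reads, and a value after ± is the SD over 3 libraries. Log2 fold changes are dPoflbC over dCA after TMM scaling, with their standard errors (SE). The median over all genes tested was -0.07 after this scaling and 0.51 with no scaling, and because RPKM are unscaled, a ratio of RPKM exceeds the fitted ratio by a median of 0.58 on the log2 scale. In RNA from whole mycelium, fewer cells of a type and less RNA per cell cannot be told apart. The p-values measure the spread between triplicate cultures.

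Of 8681 genes with enough reads to test, 988 (11.4%) were higher in dPoflbC and 1368 (15.8%) were lower. Throughout, higher or lower as a call means an adjusted p under 0.05 in edgeR's quasi-likelihood test with Benjamini-Hochberg adjustment over all genes tested, and a log2 fold change of at least 1 in size. With no scaling, 2272 (26.2%) were higher and 757 (8.72%) lower. With the adjusted p alone, 5288 genes (60.9%) passed. At a log2 fold change of 2 or more the counts were 329 higher (3.79%) and 564 lower (6.5%), and at 5 or more they were 23 and 86. The lower calls were most frequent among the most abundant transcripts. Above 1000 RPKM, 12 of 131 genes (9.16%) were higher and 53 (40.5%) lower, whereas between 10 and 100 RPKM 524 of 5345 (9.80%) were higher and 691 (12.9%) lower. Genes with an informative description or KEGG entry were called higher in 485 of 3543 cases (13.7%) and lower in 375 (10.6%). Genes without one were higher in 503 of 5138 cases (9.79%) and lower in 993 (19.3%). Most of the lower calls therefore fell on genes without an informative description or KEGG entry, some of which carry a GO function. Without dCA replicate 2, 877 of the 988 higher and 1198 of the 1368 lower genes were called in the same direction.

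**Figure D1:**
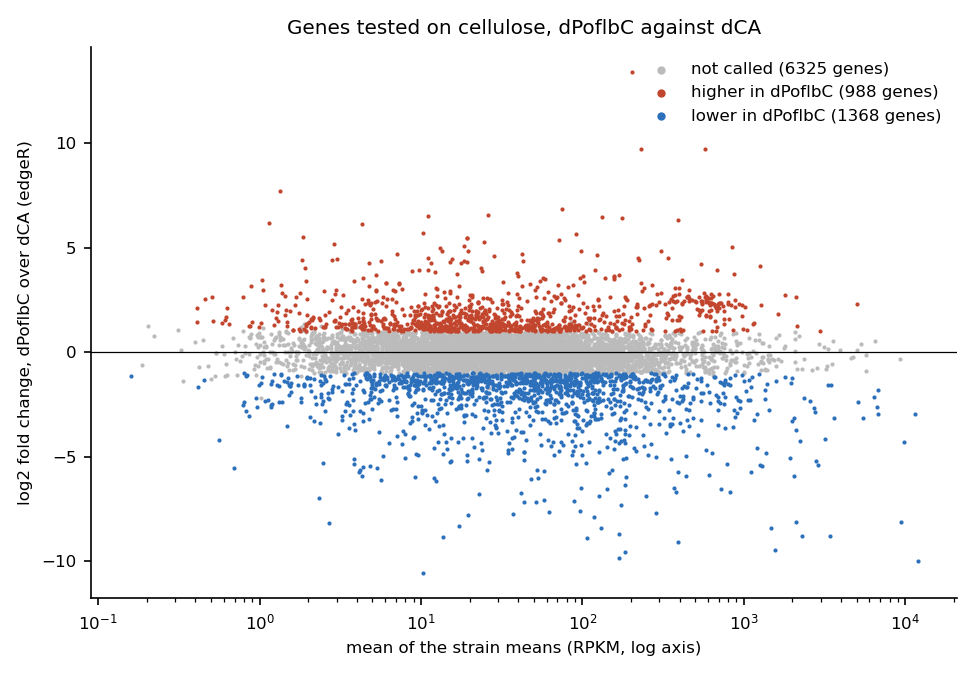
Log2 fold change of dPoflbC over dCA on the vertical axis against the mean level of each gene tested on the horizontal axis (RPKM, log scale). Points are genes, coloured by call; the 988 higher and 1368 lower genes are spread over all levels, and lower genes prevail above 1000 RPKM.

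Sorted by what the genes encode, the lists moved in different directions. Their counts stand beside 11.4% higher and 15.8% lower among all genes tested. Among the lists with at least 5 tested members, the highest median log2 fold change was that of cytosolic ribosomal proteins (2.33) and the lowest that of cellulases (-4.37). Polymer-degrading enzymes lay below the median of all genes and the machinery that makes ribosomes lay above it. The ubiquitin list had 1 higher and 2 lower of 64 members, the proteasome list 0 and 1 of 41, and the splicing list 1 and 0 of 64. These counts depended on the scaling, and with none 8 ubiquitin, 2 proteasome and 23 splicing genes were higher. The DNA replication list, with histones and cell cycle genes, had 3 higher and 4 lower of 93, cell wall synthesis 5 and 4 of 59, and the cytoskeleton and septa 6 and 5 of 59; with no scaling the higher members numbered 20, 16 and 18. For autophagy and the vacuole no member of 18 was called (median -0.14, and 0.43 with no scaling, where again none was called). Summed over its members, this last list took 3202, 3174 and 3192 reads per M in dPoflbC and 3191, 3151 and 3169 in dCA.

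**Figure D2:**
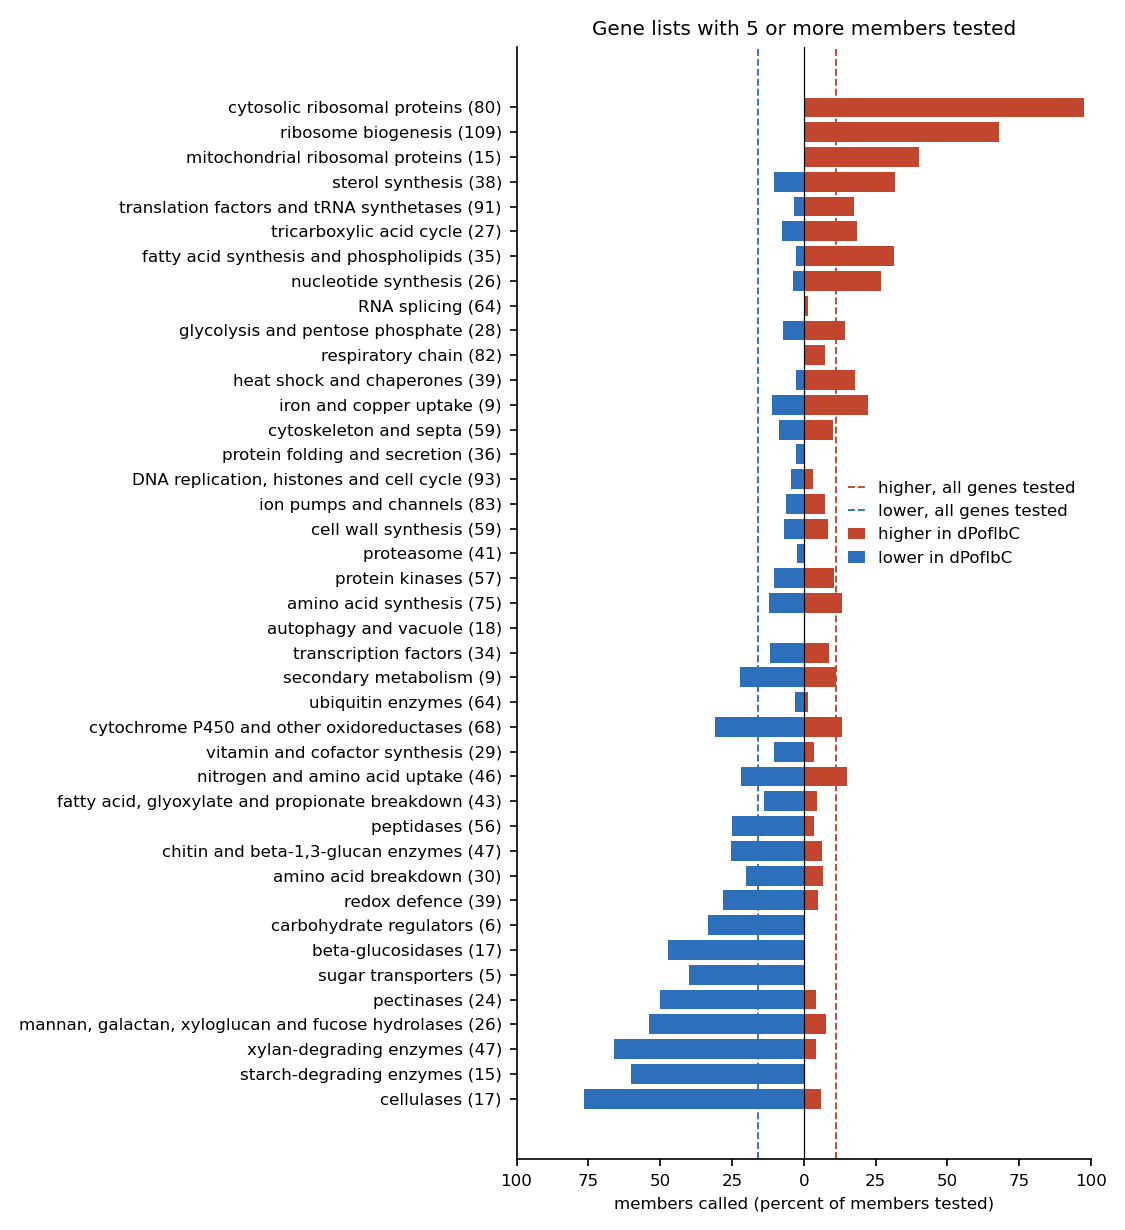
Share of tested members called higher (red) or lower (blue) in dPoflbC for each gene list, in percent, with the dashed lines marking the 11.4% and 15.8% of all genes tested. Ribosomal lists carry almost all their calls on the higher side and polymer-degrading lists on the lower side.

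Cellulases were lower in 13 of 17 tested members and higher in 1, with a median log2 fold change of -4.37. Their reads summed to 1776, 2083 and 2216 per M in dPoflbC and to 8230, 14758 and 10974 per M in dCA, a ratio of 5.59. The groups did not overlap, and p was 0.1, the smallest that an exact permutation test of 3 against 3 allows. Swollenin PDE_02102, an expansin-like protein that loosens cellulose fibres, was at 23.4, 22.6 and 24.7 RPKM in dPoflbC, against 1225, 1573 and 1449 RPKM in dCA (log2 fold change -6.52, SE 0.43). Every dCA library was far above every dPoflbC library. Its neighbour, the xylanase PDE_02101, was at 88.8, 91.9 and 81.6 RPKM against 2015, 2939 and 2548 RPKM (-5.46, SE 0.40). Cel6A (PDE_07124), a cellobiohydrolase that releases cellobiose from chain ends, was at 10.2, 17.7 and 19.2 RPKM against 142, 578 and 299 RPKM, so that dCA replicate 2 held the highest level. The same library held the highest level of the cellobiohydrolase CBHI/Cel7A-2 (PDE_07945), at 2935 RPKM beside 558 and 982 RPKM in the other dCA libraries and 233, 326 and 422 RPKM in dPoflbC. The spread of both genes within dCA was wide, yet no dPoflbC library reached the lowest dCA library. Compared with dPoClrC, Cel6A was lower in dPoflbC (-1.74), while CBHI/Cel7A-2 was not called (1.14).

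An oxidative branch of cellulose cleavage did not move as a block. The putative cellulose monooxygenase PDE_06768 was at 36.8, 35.7 and 52.9 RPKM in dPoflbC, against 9.56, 5.26 and 8.16 RPKM in dCA (log2 fold change 1.88, SE 0.19). It was higher in every dPoflbC library, opposite to most of the list. Cel61A (PDE_05633), of the same enzyme class, had 1 read in all of dPoflbC, 432 in dCA and 453 in dPoClrC. On chromosome order, Cel45A (PDE_07928) and Cel7B (PDE_07929), both endoglucanases that cut inside the chain, sit next to aspergillopepsin I (PDE_07927), a secreted acid protease. The protease was at 23.6, 21.9 and 18.7 RPKM in dPoflbC, against 835, 738 and 980 RPKM in dCA (-5.90, SE 0.33), beside log2 fold changes of -4.81 for Cel45A and -4.66 for Cel7B. All 3 were also lower than in dPoClrC. They belong to a run of 5 neighbours that were all lower in dPoflbC. Cel45A and Cel7B were chosen after their values were seen.

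Xylan-degrading enzymes were lower in 31 of 47 members and higher in 2 (median -1.63). Their summed reads were 4413, 5336 and 4507 per M in dPoflbC and 36121, 32574 and 39593 per M in dCA, 7.60 times as many. Without the 10 genes with most reads the ratio of the sums was 5.47. The acetyl xylan esterase PDE_04182, which removes acetyl groups from xylan, was at 19.1, 21.9 and 24.1 RPKM in dPoflbC, against 4735, 2826 and 4998 RPKM in dCA (-8.14, SE 0.53). In dPoClrC it was at 2290, 7817 and 7123 RPKM, so that its low level separated dPoflbC from both other strains. The feruloyl esterase PDE_06649, which frees phenolic side groups, behaved likewise, at 19.4, 20 and 29.0 RPKM against 1844, 1145 and 1833 RPKM (-6.70, SE 0.32). A beta-xylosidase, PDE_08037, and an exo-alpha-L-1,5-arabinanase, PDE_08038, lie side by side and had log2 fold changes of -3.40 (SE 0.23) and -4.96 (SE 0.27). PDE_08037 and PDE_08038 were chosen after their values were seen. Against dPoClrC, 35 of the 47 xylan-degrading genes were lower and 2 higher, where 13.6% and 9.05% of all genes tested were.

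Enzymes that act on mannan and other hemicelluloses were lower in 14 of 26 members and higher in 2 (median -1.25), pectinases in 12 of 24 and 1 (-1.0), and beta-glucosidases in 8 of 17 and 0 (-0.80). Many of these calls depended on the scaling. With none, 10 were lower and 4 higher in the first list (median -0.65). Pectinases then had 4 lower and 3 higher (-0.42), and beta-glucosidases 4 lower and 3 higher (-0.21). Genes for breaking down chitin and beta-1,3-glucan, the polymers of the fungus's own wall, were lower in 12 of 47 members and higher in 3. Their median was -0.33, above 0 with no scaling. One of the 3, the chitinase PDE_04326, was at 265, 313 and 316 RPKM in dPoflbC, against 28.5, 13.0 and 11.2 RPKM in dCA (3.53, SE 0.26). The putative chitinase PDE_08122 went the other way, with 17.2, 22.7 and 21.1 RPKM against 158, 177 and 159 RPKM (-3.62, SE 0.25). The beta-N-acetylhexosaminidase PDE_06400, which splits chitin fragments into single sugars, was lower too (-3.39, SE 0.24). The chitosanase PDE_08733 was called lower (-4.42) on the strength of 1 library. It was at 4.65, 293 and 8.23 RPKM in dCA and at 9.27, 11.5 and 4.13 RPKM in dPoflbC, the strains overlapped, and without dCA replicate 2 the value was -0.08.

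Starch breakdown and the uptake of its products also differed, although the cultures were given cellulose. Of 15 starch-degrading genes 9 were lower and 0 higher (median -1.67). Their reads summed to 2252, 2326 and 2384 per M in dPoflbC and to 16889, 14513 and 19682 per M in dCA, a ratio of 7.34. PDE_01354, a protein with domains for binding starch and chitin, stood at 13.3, 12.7 and 11.9 RPKM against 3266, 2272 and 3291 RPKM (-8.43, SE 0.23). The alpha-amylase Amy13A (PDE_01201) was at 2.61, 4.59 and 5.42 RPKM in dPoflbC, at 320, 722 and 651 RPKM in dCA and at 24.6, 34.1 and 35.3 RPKM in dPoClrC. The strains thus fell into 3 levels for this enzyme, with dPoflbC lowest. The alpha-glucosidase PDE_03966, which releases glucose from short chains, was at 3.74, 3.84 and 5.47 RPKM against 332, 144 and 361 RPKM (-6.53, SE 0.32).

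A transporter gene stood next to such an enzyme gene and moved with it. PDE_04150, an alpha-glucoside:H+ symporter of the type that imports maltose, was at 68.7, 62.2 and 56.4 RPKM in dPoflbC, against 600, 311 and 469 RPKM in dCA (-3.44, SE 0.17). Its neighbour, the alpha-glucosidase PDE_04151, had a log2 fold change of -3.98 (SE 0.19). The symporter PDE_03571 (-1.87, SE 0.19) lies next to the alpha-glucuronidase PDE_03572 (-1.90, SE 0.23) and the xylanase PDE_03573 (-1.63, SE 0.21), both enzymes of xylan breakdown. Of 8 genes with this symporter description 3 were lower and 1, PDE_01853, was higher, at 160, 140 and 149 RPKM against 37.7, 20 and 31.9 RPKM (1.77, SE 0.14). All 6 of these genes were chosen after their values were seen. A pair of sugar:H+ symporters outside this family, PDE_00197 (3.31, SE 0.52) and PDE_03140 (3.72, SE 0.25), were higher in dPoflbC at low levels of 11.4 ± 7.85 and 10 ± 2.15 RPKM, against 0.751 ± 0.220 and 0.502 ± 0.163 RPKM in dCA.

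**Figure D3:**
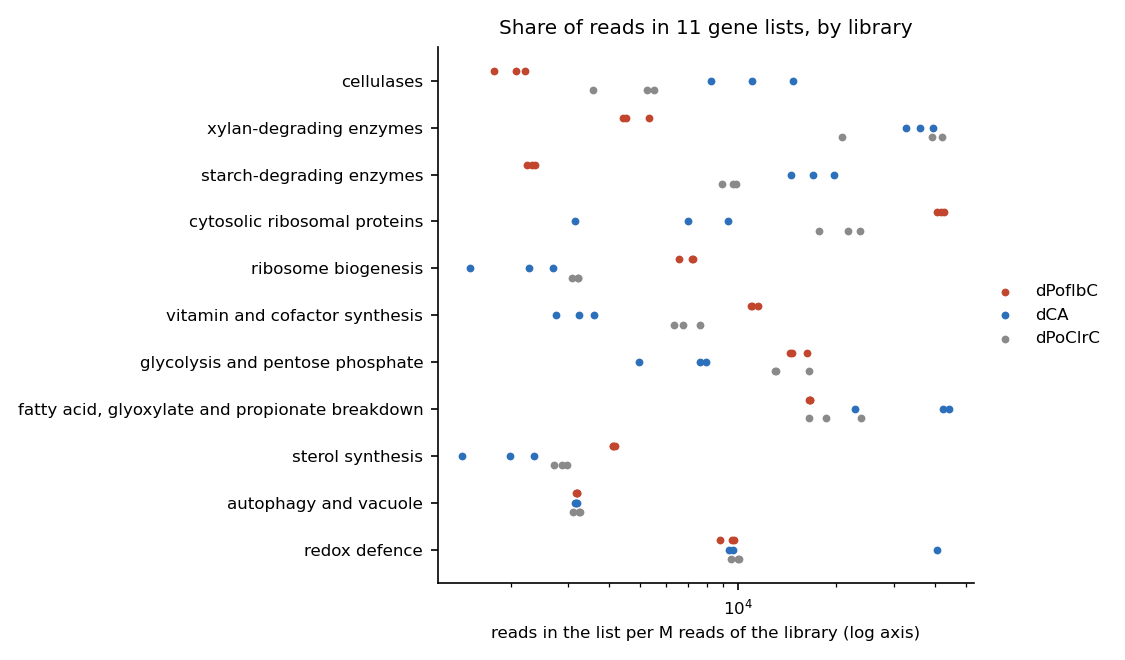
Reads per M reads summed over the members of 11 gene lists in each library (log scale), with 1 point per library in the colour of its strain. Starch and xylan degradation are over 7 times higher in dCA, ribosomal proteins higher in dPoflbC, and the autophagy list close together in all 9 libraries.

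The peptidase list, from which the proteasome has a list of its own, was lower in 14 of 56 members and higher in 2 (median -0.31). With no scaling the direction turned, with 11 higher and 6 lower and a median of 0.26. Tripeptidyl-peptidase I (PDE_01353), which trims peptides from their amino end and lies beside the starch-binding protein PDE_01354, was at 36.6, 29.6 and 36.4 RPKM in dPoflbC, against 172, 204 and 246 RPKM in dCA (-3.20, SE 0.23). Carboxypeptidase D (PDE_06031), which trims from the other end, was at 3.33 ± 0.313 against 21.2 ± 3.54 RPKM (-3.28, SE 0.26). In dPoClrC neither was low, with levels of 488, 298 and 335 RPKM for the first and 25.9, 22.8 and 18.2 RPKM for the second. The list of folding and secretion genes, which serve the export of secreted proteins, had 0 higher and 1 lower of 36, and 10 and 1 with no scaling.

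The cytosolic ribosome list had 78 of 80 members higher and 0 lower, with a median log2 fold change of 2.33. Its reads took 42813, 41754 and 40551 per M in dPoflbC and 9266, 3156 and 7006 per M in dCA, which is 0.155 of the dPoflbC sum. The lowest value was that of dCA replicate 2, and the strains did not overlap. Over the list the log2 fold changes ran from -0.43 to 2.81, and the 3 members described next lie near the upper end. SAe (PDE_05108), a small subunit protein, was at 530, 530 and 524 RPKM in dPoflbC, against 81.0, 21.3 and 58.1 RPKM in dCA (2.79, SE 0.31). L17e (PDE_00304), of the large subunit, was at 767, 669 and 731 RPKM against 109, 24.1 and 83.5 RPKM (2.81, SE 0.35). The stalk protein LP1 (PDE_02590) was at 1149, 1119 and 1141 RPKM against 164, 47.9 and 125 RPKM (2.81, SE 0.28). In each of them the dPoflbC libraries lay within a narrow band and dCA replicate 2 was the lowest. In the comparison with dPoClrC, which shares the dPoflbC libraries, 5 of the 80 were higher and 0 lower (median 0.77). The list took 23656, 21685 and 17690 reads per M in dPoClrC, below every dPoflbC library. LP1 was at 572, 465 and 412 RPKM in dPoClrC, between the other strains.

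Ribosome biogenesis, the processing of ribosomal RNA and assembly of the subunits, was higher in 74 of 109 members and lower in 0 (median 1.33). The sums were 7264, 7221 and 6586 reads per M in dPoflbC and 2692, 1506 and 2276 in dCA, a ratio of 0.307. RRP17 (PDE_00854), an exonuclease that trims precursor ribosomal RNA, was at 23.6, 25.6 and 27.5 RPKM against 2.07, 1.82 and 3.00 RPKM (2.88, SE 0.24). The U3-associated protein 13 (PDE_03677), part of the complex that starts small subunit assembly, was at 22.6, 24.8 and 20.4 RPKM against 3.70, 1.00 and 2.60 RPKM (2.68, SE 0.25). RRP1 (PDE_00685) was higher by 2.43 (SE 0.17). Against dPoClrC, 55 of 109 members were called higher (median 1.01), beside 5 of 80 ribosomal proteins (median 0.77) and 9.05% of all genes tested. The medians lie on either side of the minimum log2 fold change of 1 for a call. Whether both lists differ in this respect was not tested.

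Translation factors and tRNA synthetases had 16 higher and 3 lower of 91 members (median 0.54). Elongation factor 3 (PDE_09257), a fungal factor that releases spent tRNA, was at 938, 1026 and 937 RPKM in dPoflbC, at 261, 123 and 215 RPKM in dCA and at 281, 223 and 245 RPKM in dPoClrC. It therefore stood higher in dPoflbC than in either strain (1.73 and 1.68). Elongation factor 1-alpha, which brings tRNA to the ribosome, has 2 tested genes that moved apart. The abundant copy PDE_02596 was at 4247, 4470 and 4423 RPKM against 2096, 789 and 1637 RPKM (1.01, SE 0.24), a call that was lost without dCA replicate 2 (0.80). The minor copy PDE_09012 was at 48.2, 49.3 and 44.6 RPKM against 287, 292 and 303 RPKM (-3.23, SE 0.24). The tyrosyl-tRNA synthetase PDE_00455 was lower (-3.56, SE 0.92), but of its dCA levels of 315, 3761 and 374 RPKM only replicate 2 stood far above the 224, 242 and 189 RPKM of dPoflbC. Without that library the value was -1.10.

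Mitochondrial ribosomal proteins were higher in 6 of 15 (40%, median 0.92). The tricarboxylic acid cycle was higher in 5 of 27 (18.5%) with 2 lower (7.41%, median 0.47). Respiratory chain genes were higher in 6 of 82 (7.32%) and lower in 0, beside 11.4% and 15.8% of all genes tested. Their median of 0.27 nevertheless lay above the -0.07 of all genes. With no scaling 30 of the 82 were higher, where 26.2% of all genes tested were. Their summed reads were 23295, 22891 and 22742 per M in dPoflbC and 15138, 12000 and 15272 per M in dCA. Within the respiratory list 1 gene stood far from the rest. Subunit c of the F-type ATPase (PDE_07836), which forms the rotating ring of ATP synthase, was at 2338, 2487 and 2400 RPKM in dPoflbC, against 148, 44.5 and 96.8 RPKM in dCA (4.12, SE 0.29, adjusted p = 1.77e-06 by edgeR's quasi-likelihood test with Benjamini-Hochberg adjustment). In dPoClrC it was at 526, 438 and 394 RPKM, and the difference from dPoflbC was called there as well (2.14). The cytochrome b560 subunit of succinate dehydrogenase (PDE_09828), which anchors that enzyme in the membrane, was at 240, 204 and 218 RPKM against 31.1, 28.1 and 35.1 RPKM (2.22, SE 0.16). Citrate synthase PDE_09135, the entry step of the cycle, was at 320, 310 and 330 RPKM against 89.5, 70.4 and 89.8 RPKM (1.36, SE 0.12).

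Glycolysis and the pentose phosphate pathway were mixed by count, with 4 higher (14.3%) and 2 lower (7.14%) of 28 members (median 0.27). Their summed reads in dCA were nevertheless 0.454 of those in dPoflbC. The sums were 14432, 14598 and 16198 per M in dPoflbC and 7931, 4964 and 7636 per M in dCA. Hexokinase PDE_03370, which traps glucose in the cell as its phosphate, was at 61.1, 66.7 and 67.1 RPKM against 202, 118 and 183 RPKM (-1.93, SE 0.13). Malic enzyme PDE_04142, which yields pyruvate and NADPH or NADH, was at 930, 1274 and 899 RPKM against 96.8, 64.1 and 135 RPKM (2.83, SE 0.23).

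Genes that handle 2-carbon and fatty acid carbon gave 6 lower (14%) and 2 higher (4.65%) of 43 (median -0.26, above 0 with no scaling). Of all genes tested 15.8% were lower and 11.4% higher, so neither share exceeded that of all genes. As a sum they took 16618, 16586 and 16527 reads per M in dPoflbC and 22872, 44364 and 42418 per M in dCA, a ratio of 2.20 that was 1.25 without the 10 genes with most reads. The sums were then 8534, 6870 and 8581 per M in dPoflbC and 7324, 11965 and 10791 per M in dCA, and the strains overlapped. Carnitine O-acetyltransferase PDE_00666, which shuttles acetyl groups between compartments, was at 120, 114 and 126 RPKM against 254, 492 and 499 RPKM (-2.42, SE 0.29). Isocitrate lyase PDE_08297, the first enzyme of the glyoxylate cycle, was at 544, 345 and 547 RPKM in dPoflbC and 588, 1873 and 1501 RPKM in dCA (-2.12, SE 0.46). Here dCA replicate 1 was close to dPoflbC and the other dCA libraries were well above it. Pyruvate carboxylase PDE_05651, which refills oxaloacetate, followed the same order of libraries with 206, 416 and 477 RPKM in dCA and 178, 173 and 201 RPKM in dPoflbC (-1.62, SE 0.31). With no scaling it was -1.0 and not called.

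The list of fatty acid synthesis and phospholipids was higher in 11 of 35 members and lower in 1 (median 0.45). Sterol synthesis was higher in 12 of 38 with 4 lower (median 0.54). The sterol list took 4135, 4131 and 4191 reads per M in dPoflbC and 2357, 1421 and 1995 per M in dCA. The delta-12 desaturases PDE_00643 and PDE_06752, which make linoleic acid, were at 451, 449 and 476 RPKM against 82.6, 30.0 and 86.2 RPKM (2.26, SE 0.31), and at 18.5, 14 and 17.6 RPKM against 1.15, 0.448 and 0.666 RPKM (3.90, SE 0.28). Fatty acid synthase is a complex of alpha and beta subunits, and its genes lie near each other in pairs. The pair PDE_01451 and PDE_01453 was higher, with log2 fold changes of 1.89 (SE 0.26) and 2.63 (SE 0.29). The pair PDE_01217 and PDE_01220 was more abundant. In dPoflbC its genes had 585 ± 68.1 and 608 ± 67.8 RPKM, in dCA 530 ± 86.2 and 493 ± 67.6 RPKM, and neither was called (-0.47 and -0.31). Against dPoClrC both pairs were called higher in dPoflbC (1.54 to 2.69).

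In sterol synthesis the delta24(24(1))-sterol reductase PDE_02426, the last step to ergosterol, was at 51.9, 56.5 and 64.2 RPKM against 12.2, 4.35 and 11.3 RPKM (2.09, SE 0.22). C-8 sterol isomerase PDE_02884 (2.07, SE 0.22) and methylsterol monooxygenase PDE_05808 (1.86, SE 0.21) were higher as well. Sterol 14-demethylase, the target of azole fungicides, has a higher copy, PDE_06265 (86.9 ± 4.69 against 19.6 ± 8.24 RPKM), and a lower one, PDE_09230 (10.1 ± 1.93 against 22.8 ± 9.73 RPKM). A second methylsterol monooxygenase, PDE_02139, lies within a run of 5 neighbours that were all higher. Next to it the delta-9 desaturase PDE_02138, which makes oleic acid, was at 60.6, 86.4 and 89.4 RPKM against 7.98, 3.5 and 6.33 RPKM (3.17, SE 0.27). PDE_02139 itself was at 110, 146 and 137 RPKM against 17.6, 3.96 and 7.66 RPKM (3.23, SE 0.34). PDE_02140, PDE_02141 and PDE_02142, without a described role, had values of 2.34, 2.20 and 1.95. Except for PDE_02138 and PDE_02139, the run was not called against dPoClrC. PDE_01451, PDE_06265 and PDE_02140 to PDE_02142 were chosen after their values were seen.

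Amino acid synthesis held 10 higher (13.3%) and 9 lower genes (12%) of 75 (median -0.12, above 0 with upper-quartile and no scaling). Of all genes tested 11.4% were higher and 15.8% lower. Ketol-acid reductoisomerase PDE_02091, an enzyme of valine and isoleucine synthesis, was at 466, 402 and 422 RPKM in dPoflbC, against 42.9, 22.9 and 47.0 RPKM in dCA (2.96, SE 0.17). Glutamate synthase PDE_02386, which takes nitrogen into glutamate, was at 49.9, 54.4 and 66.9 RPKM against 8.16, 4.70 and 10.3 RPKM (2.33, SE 0.24). NADP-dependent glutamate dehydrogenase PDE_06117, an alternative route to glutamate, was at 163, 133 and 217 RPKM against 20, 12.2 and 20 RPKM (2.74, SE 0.21). Both glutamate enzymes were also higher than in dPoClrC (1.69 and 2.60). Within the tryptophan pathway the genes parted. Tryptophan synthase PDE_08103 was higher (1.8, SE 0.23), a separate beta chain gene PDE_01370 was lower (-6.07, SE 0.73), and anthranilate phosphoribosyltransferase PDE_09404, an earlier step, was at 53.5, 53.6 and 54.4 RPKM against 184, 161 and 181 RPKM (-2.29, SE 0.12). Nucleotide synthesis was higher in 7 of 26 and lower in 1 (median 0.41).

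In the vitamin and cofactor list 1 gene carried the sum. The list had 1 higher and 3 lower of 29 members (median -0.19, above 0 with upper-quartile and no scaling), yet took 10956, 10998 and 11513 reads per M in dPoflbC and 3252, 2751 and 3612 per M in dCA. Thiamine thiazole synthase PDE_07008, which builds a ring of vitamin B1, was at 8565, 8836 and 9277 RPKM in dPoflbC, 1384, 785 and 1508 RPKM in dCA and 4790, 4259 and 5657 RPKM in dPoClrC (2.31 against dCA, SE 0.21). Without the 10 genes with most reads, the ratio of the sums moved from 0.287 to 0.896.

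For the breakdown of amino acids and aromatic compounds the counts depended on the strain that dPoflbC was set against. The amino acid breakdown list had 2 higher and 6 lower of 30 against dCA (median -0.55), and 12 higher and 2 lower against dPoClrC (median 0.39). Without dCA replicate 2 the counts against dCA were 4 and 2, and with no scaling the median was above 0. Tryptophanase PDE_05889, which splits tryptophan to indole, was at 1.59, 1.8 and 0.881 RPKM in dPoflbC, against 248, 127 and 202 RPKM in dCA (-7.61, SE 0.27). The 4-hydroxyphenylpyruvate dioxygenase PDE_09761, the step that commits tyrosine to breakdown, was at 1026, 906 and 909 RPKM against 5020, 3532 and 5191 RPKM (-2.85, SE 0.18), with 519, 662 and 617 RPKM in dPoClrC. Of the 4 tested genes with this description it was the 1 called lower, and 1 other, PDE_08904, was called higher. The neighbour of PDE_09761, the DOPA 4,5-dioxygenase PDE_09760, was at 436 ± 27.2 against 1393 ± 125 RPKM. PDE_08904 and PDE_09760 were chosen after their values were seen. The later steps, homogentisate 1,2-dioxygenase PDE_08906 and fumarylacetoacetase PDE_08907, were called lower (-2.35 and -2.26). Their dCA levels of 609, 2151 and 368 RPKM and 1021, 3333 and 496 RPKM peaked in replicate 2, the RPKM of the strains overlapped in both genes (475, 367 and 185 RPKM and 785, 622 and 285 RPKM in dPoflbC), and without that library both lost the call (-0.95 and -0.86).

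Aromatic ring cleavage showed the same high library without depending on it. Catechol 1,2-dioxygenase PDE_05239, which opens the ring, was at 29.4, 28.7 and 18.6 RPKM against 306, 807 and 329 RPKM (-4.92, and -4.07 without dCA replicate 2). The 2,3-dihydroxybenzoate decarboxylase PDE_02215, which can feed it with catechol, was at 41.2, 38.3 and 20.3 RPKM against 612, 2268 and 644 RPKM (-5.87, and -4.68 without it).

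Redox defence was lower in 11 of 39 members and higher in 2 (median -0.58). The catalase PDE_01404, which breaks down hydrogen peroxide, was at 21.4, 24.9 and 23.7 RPKM against 52.1, 95.5 and 55.9 RPKM (-2.19, SE 0.29). The glutathione S-transferases PDE_02434 and PDE_05020, which couple glutathione to reactive compounds, were lower by like amounts (-2.37, SE 0.14, and -2.43, SE 0.13). Manganese or iron superoxide dismutase PDE_05432 (1.04) and thioredoxin 1 PDE_07564 (1.02) were the 2 higher members, and both lost the call without dCA replicate 2 (0.91 each). The glutathione S-transferase PDE_01194 held more reads than any other gene of that library. It was at 2132, 2378 and 476 RPKM in dPoflbC, at 1667, 50040 and 2537 RPKM in dCA and at 4.99, 4.18 and 6.10 RPKM in dPoClrC. The call against dCA (-4.27, SE 1.3) became -0.79 without replicate 2, and the strains overlapped. The sum over the list, 9729, 9569 and 8786 reads per M against 9612, 40816 and 9332, did not separate the strains (exact permutation p = 0.5). None of the 10 genes with most reads over all libraries is in this list, so leaving them out changes only the total. The sums of 10062, 9926 and 9105 against 10532, 44253 and 10333 then did not overlap (exact permutation p = 0.1, the smallest possible). With all reads, the ratio of dCA to dPoflbC sums was 2.13, and 1.01 without dCA replicate 2.

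The list of cytochrome P450 enzymes and other oxidoreductases was lower in 21 of 68 members and higher in 9 (median -0.19). The median was 0.03 with upper-quartile scaling and 0.37 with no scaling (16 higher and 14 lower), and without dCA replicate 2 the counts were 11 higher and 14 lower. Heat shock proteins and chaperones were higher in 7 of 39 and lower in 1 (0.19). The disaggregase ClpB (PDE_00624), which pulls apart clumped proteins, was at 213, 94 and 95.8 RPKM in dPoflbC, against 16.3, 10.6 and 11.7 RPKM in dCA (2.80, SE 0.31). It was similarly low in dPoClrC, at 21.6, 15.8 and 15.7 RPKM. Nitric oxide dioxygenase PDE_01345, a flavohaemoglobin that detoxifies nitric oxide, was at 792, 638 and 534 RPKM against 63.7, 96.6 and 67.9 RPKM (2.47, SE 0.33).

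Nitrogen uptake and use was divided, with 7 higher (15.2%) and 10 lower (21.7%) of 46 members, and 10 and 5 with no scaling. Nitrate reductase PDE_02461 was at 8.17, 15 and 10.9 RPKM against 1.07, 0.469 and 0.802 RPKM (3.30, SE 0.31). The amino acid permease PDE_00845 was at 1196, 1188 and 1479 RPKM against 106, 236 and 128 RPKM (2.38, SE 0.45), whereas the permease PDE_04432 was at 546, 509 and 597 RPKM against 1092, 1121 and 1038 RPKM (-1.58, SE 0.20, and -0.98 and not called with no scaling). The oligopeptide transporter PDE_05534, which imports short peptides with protons, was at 65.7, 51.0 and 44.5 RPKM against 179, 175 and 183 RPKM (-2.34, SE 0.19). Ion pumps and channels had 6 higher and 5 lower of 83, and 18 and 3 with no scaling. The H+-transporting ATPase PDE_01674, of the pump family that drives such symport, was at 435, 426 and 408 RPKM against 1011, 1010 and 1188 RPKM (-1.93, SE 0.17), and 511, 422 and 452 RPKM in dPoClrC. Of the 2 tested genes with this description, the other was called higher. The copper transporter PDE_08756 and the adjacent ferric-chelate reductase PDE_08755, which can reduce metal ions for uptake, were both higher (1.96, SE 0.28, and 1.42, SE 0.20), in a list of iron and copper uptake with 2 higher and 1 lower of 9.

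Transcription factors were higher in 3 of 34 (8.82%) and lower in 4 (11.8%), and protein kinases in 6 (10.5%) and 6 (10.5%) of 57, beside 11.4% and 15.8% of all genes tested. The myb-related protein PDE_09744 was at 3.64, 3.63 and 4.19 RPKM in dPoflbC, 71.3, 47.1 and 78.5 RPKM in dCA and 20, 12.5 and 13.2 RPKM in dPoClrC (-4.66 against dCA, SE 0.21). AceA (PDE_01988), a zinc finger factor known in Trichoderma reesei as a repressor of cellulase genes, was at 92.4, 112 and 102 RPKM against 139, 132 and 135 RPKM. Its log2 fold change of -1.01 (SE 0.16) was at the edge of the call, which was lost without dCA replicate 2 (-0.87) and with no scaling (-0.41). The short list of carbohydrate regulators had 2 lower (33.3%) and 0 higher of 6 members (median -0.60, lowest -1.58). Without dCA replicate 2 it had 1 lower member, and with no scaling 0. Both tested members of the short asexual development list were higher. BrlA (PDE_00087) was at 72.1, 70.8 and 82.3 RPKM in dPoflbC, 5.71, 1.77 and 3.51 RPKM in dCA and 10.8, 14.7 and 14.5 RPKM in dPoClrC. The unannotated gene next to it, PDE_00086, was chosen after its values were seen. It had 43 reads in dPoflbC and 1 in dCA, which is 41.5 times as many per M (95% exact binomial interval 7.06 to 1676).

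**Figure D4:**
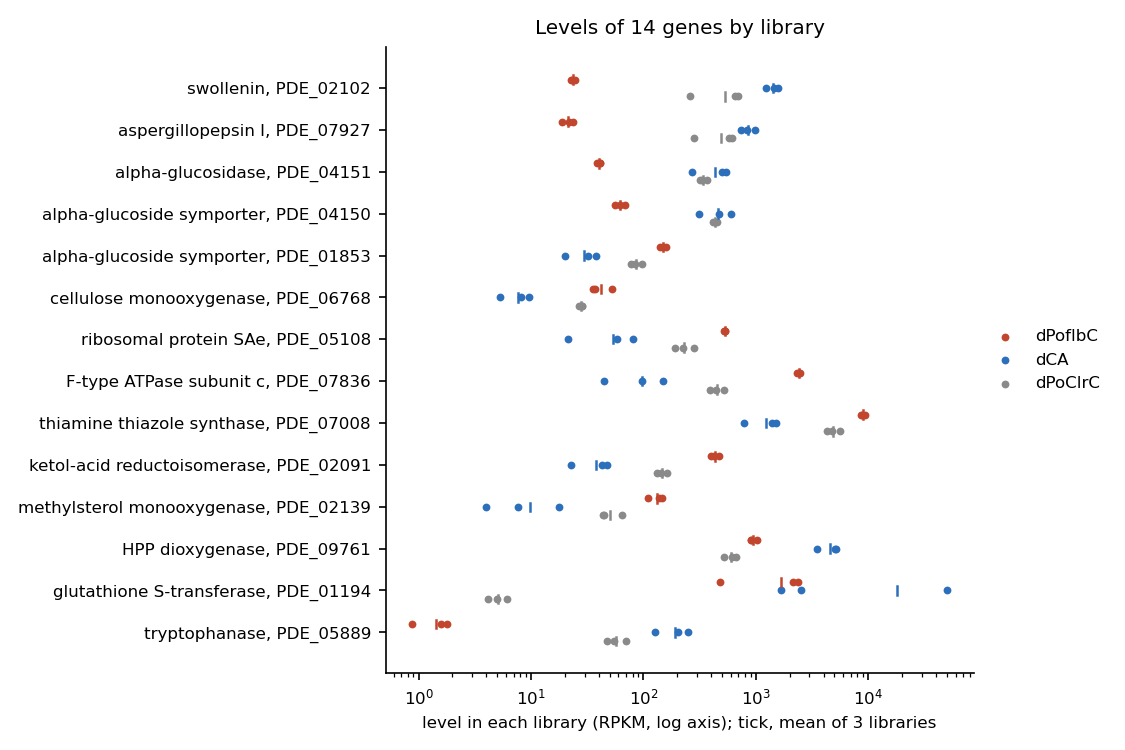
Level of 14 genes in each library (RPKM, log axis) for dPoflbC, dCA and dPoClrC, with 1 row per gene, 1 point per library and a tick at the mean of 3. In swollenin and the ATPase subunit dPoClrC lies between the other strains, in the 4-hydroxyphenylpyruvate (HPP) dioxygenase dCA alone is high, and in PDE_01194 dCA replicate 2 lies far above all other libraries.

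Some genes with the same enzyme description were called in opposite directions. Of 342 KEGG descriptions shared by at least 2 tested genes, covering 897 genes, 90 had a higher member, 117 had a lower one and 25 had both. The 25 included elongation factor 1-alpha, 4-hydroxyphenylpyruvate dioxygenase, chitinase and sterol 14-demethylase, described above. Among the tyrosinases, copper enzymes of pigment formation, PDE_03554 was at 244, 276 and 277 RPKM against 40.5, 14.6 and 32.1 RPKM (2.66, SE 0.24) and PDE_04260 was at 363 ± 30.2 against 70.7 ± 38.1 RPKM (1.83, SE 0.30). The low-abundance tyrosinase PDE_04614 was at 2.14 ± 0.223 against 5.32 ± 1.86 RPKM (-1.93, SE 0.52). Of the delta-9 desaturases PDE_02205 was higher with PDE_02138, at 621 ± 26.9 against 147 ± 63.7 RPKM (1.54, SE 0.30). The hexokinase PDE_09139, at 1.91 ± 0.256 against 0.258 ± 0.246 RPKM, was higher where the abundant PDE_03370 was lower. The tyrosinases, PDE_02205 and PDE_09139 were chosen after their values were seen.

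Runs of at least 4 consecutive locus numbers called in 1 direction numbered 57, with 275 genes, of which 10 runs were higher and 47 lower. Locus numbers were taken as the order along the genome, which was not checked against coordinates. With no scaling there were 76 runs, 57 higher and 19 lower, so the balance of directions depends on the scaling. At a log2 fold change of 2 or more 18 runs were left. The run with most genes, PDE_01186 to PDE_01196 (11 genes, median -4.12), contains the glutathione S-transferase PDE_01194. It was highest in dCA replicate 2, and without that library 7 of its 11 genes were called. The 4-nitrophenyl phosphatase PDE_01189 was at 126, 141 and 42.2 RPKM in dPoflbC, 305, 6540 and 435 RPKM in dCA and 1.91, 2.13 and 1.28 RPKM in dPoClrC. Relative to dPoClrC the median of the run was 3.71, so by both medians dPoflbC lay between the other strains. This order did not hold for every member, as the values against dPoClrC included -0.28 and -0.18.

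Further along the table, PDE_09239 to PDE_09245 formed a run of 7 with a median of -7.80. PDE_09239, a tetrahydroxynaphthalene reductase as in the melanin pathway, was at 0.683, 0.323 and 0.355 RPKM in dPoflbC, against 171, 12.2 and 38.6 RPKM in dCA, highest in replicate 1. PDE_09244, without a described role, was at 1.42, 1.46 and 1.48 RPKM against 284, 161 and 256 RPKM, and at 40.2, 57.6 and 81.6 RPKM in dPoClrC. Just before this run lies scytalone dehydratase PDE_09236, another melanin-type enzyme, which had too few reads for the test, with 1 in dPoflbC and 606 in dCA. Its ratio was 628 (95% exact binomial interval 112 to 24855), and its dCA levels of 146, 2.06 and 25.2 RPKM again peaked in replicate 1. The polyketide synthase PDE_09237 next to it was at 10.3, 0.0756 and 1.42 RPKM in dCA and at most 0.0264 RPKM in dPoflbC. PDE_09236 and PDE_09237 were chosen after their values were seen.

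The run PDE_09999 to PDE_10005, of 7 genes, was higher (median 2.13) and includes genes described as paspaline synthase (PDE_10000) and geranylgeranyl diphosphate synthase (PDE_10001), which makes the precursor of such indole diterpenes. PDE_10000 was at 74.3, 91.9 and 91.9 RPKM in dPoflbC, 31.1, 8.33 and 18.0 RPKM in dCA and 72.8, 107 and 69.7 RPKM in dPoClrC. The low libraries were those of dCA, and the median of the run relative to dPoClrC was -0.21. In the run PDE_01681 to PDE_01687, by contrast, the high libraries were those of dCA, with a median of -2.39 against dCA and -0.05 against dPoClrC. Its members include the galactosyl transferase PDE_01687 (9.38 ± 1.29 against 42.4 ± 12.9 RPKM) and a gene with the GO function arsenite transport, PDE_01684 (65.8 ± 8.54 against 230 ± 29.2 RPKM). All 6 genes of the run PDE_00007 to PDE_00012 were lower in dPoflbC than in dCA and than in dPoClrC. The catechol O-methyltransferase PDE_00009 was at 0.792, 0.749 and 0.987 RPKM in dPoflbC, 203, 31.1 and 138 RPKM in dCA and 710, 845 and 778 RPKM in dPoClrC. PDE_00008, annotated as a 3-dehydroquinate synthase, an activity of the shikimate pathway, was at 7.06 ± 0.510 against 136 ± 111 RPKM. Its role was not tested.

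**Figure D5:**
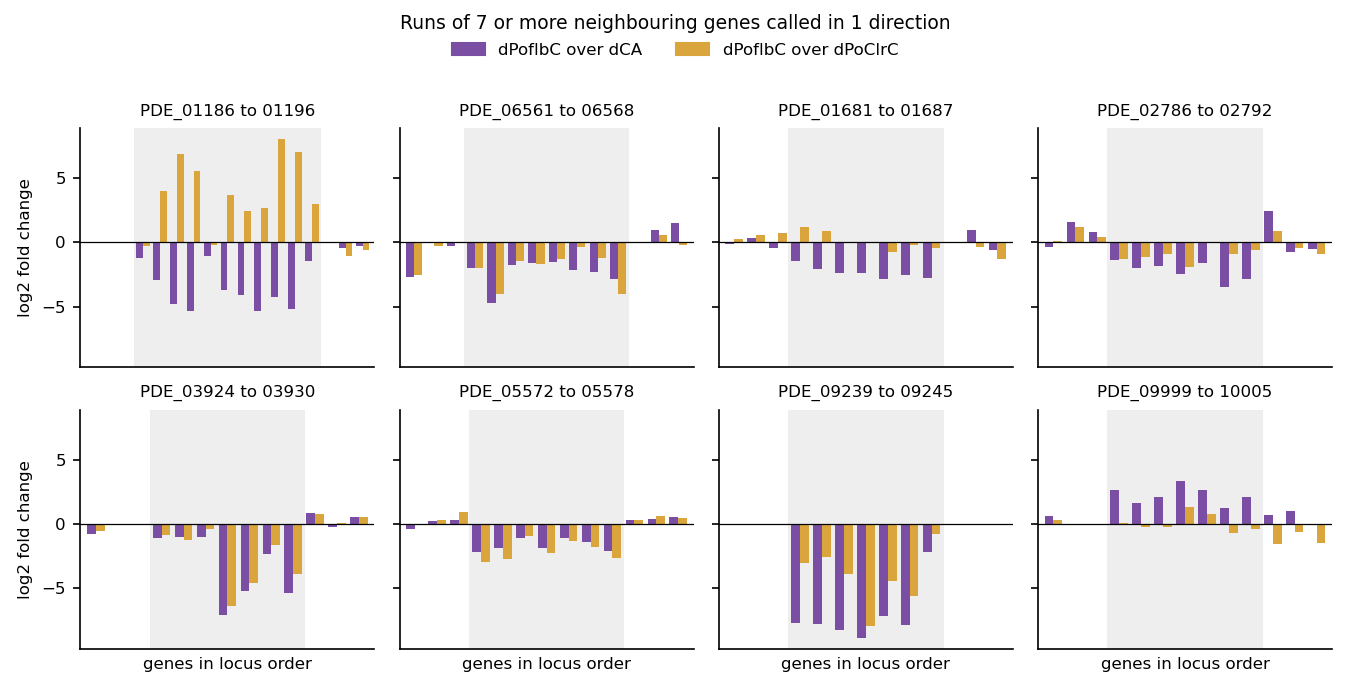
Log2 fold change of dPoflbC over dCA (vertical axis) and over dPoClrC, as separate bars, for neighbouring genes in order of locus number (horizontal axis), 1 panel for each run of at least 7 genes. Grey marks the run, which is flanked by its neighbours, and positions without a bar are genes that were not tested; in the dPoflbC over dCA bars, 7 of the 8 runs lie below 0.

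A further run of 5 higher genes, PDE_01429 to PDE_01433, was chosen after its values were seen (median 5.68). PDE_01430, with the GO function trichodiene synthase, a sesquiterpene-forming activity, was at 38.7, 57.0 and 58.7 RPKM in dPoflbC, 0.436, 0.128 and 0.505 RPKM in dCA and 5.05, 3.78 and 2.58 RPKM in dPoClrC. Its neighbours PDE_01429 and PDE_01433 carry the GO function of iron-binding oxidoreductases and were at 20.2 ± 5.33 against 0.246 ± 0.0507 RPKM and 30.3 ± 7.06 against 0.922 ± 0.460 RPKM. The whole run was also called higher against dPoClrC. Oleate hydratase PDE_01480 and L-lactate dehydrogenase PDE_01482 belong to a run of 4 higher genes. Both were lower in dPoflbC replicate 3, at 71.4, 48.5 and 16.7 RPKM and at 27.6, 27.7 and 8.45 RPKM, than in the other dPoflbC libraries, with 2.02 ± 0.543 and 0.872 ± 0.633 RPKM in dCA.

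Some genes were all but silent in 1 strain. Whether any of them is the gene deleted in that strain was not tested. With 0 reads in every dPoflbC library and at least 30 over dCA there were 6 genes, and with 0 reads in every dCA library and at least 30 over dPoflbC there were 3. PDE_08372, with the GO function of metal ion binding, had 0 reads in dPoflbC, 454 in dCA and 700 in dPoClrC, at least 157-fold lower in dPoflbC when the floor of 3 reads is taken over the group. Conversely PDE_01542, described by its likeness to the human autophagy receptor gene next to BRCA1, had 22123 reads in dPoflbC, 17274 in dPoClrC and 1 in dCA. Its levels were 404, 424 and 396 RPKM in dPoflbC and 370, 322 and 334 RPKM in dPoClrC. The ratio of dPoflbC to dCA was 21340 (95% exact binomial interval 3830 to 842914). Among genes without a described role, chosen after their values were seen, PDE_07434 was at 990, 1207 and 1231 RPKM in dPoflbC, 0.786, 0.996 and 0.834 RPKM in dCA and 0.757, 1.22 and 2.53 RPKM in dPoClrC. It was thus abundant in dPoflbC and near 0 in both other strains. PDE_02158 and its neighbour PDE_02157 had 1717 and 186 reads in dPoflbC, 1 read each in dCA, and 0 and 3 in dPoClrC. The intervals cover counting error alone.

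Several of the most abundant transcripts of dCA have no described role and were lower in dPoflbC. PDE_09832 was at 3000, 4149 and 3928 RPKM in dPoflbC, against 25401, 12658 and 20261 RPKM in dCA (-2.95, SE 0.28). PDE_09098, PDE_09166, PDE_00509 and PDE_06391 ranged from 1436 to 3452 RPKM in dPoflbC and from 6982 to 14083 RPKM in dCA, with log2 fold changes of -2.94, -2.60, -3.13 and -2.15. All 5 were lower than in dPoClrC too, where PDE_09832 was at 29158, 45142 and 42723 RPKM.

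Set against dPoClrC, in a comparison that uses the same dPoflbC libraries, dPoflbC had 786 higher (9.05%) and 1179 lower genes (13.6%). Cellulases were lower in 11 of 17 members and higher in 0, and starch-degrading genes in 10 of 15 and 0. The values above place the genes in several orders. Swollenin PDE_02102, at 259, 694 and 654 RPKM in dPoClrC, and aspergillopepsin I PDE_07927, at 281, 581 and 614 RPKM, had dPoClrC between the strains and were called in both comparisons. The xylanase PDE_04478 was at 106, 92.4 and 106 RPKM in dPoflbC, 21230, 14744 and 20052 RPKM in dCA and 9405, 24041 and 26561 RPKM in dPoClrC, where dPoflbC alone was low. For 4-hydroxyphenylpyruvate dioxygenase PDE_09761 and the H+-transporting ATPase PDE_01674, dCA alone was high, and neither was called between dPoflbC and dPoClrC (0.38 and -0.40).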

How the data were processed

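The authors deposited 1 table with a read count and an RPKM value per gene and library, per the file headers, and a dash in it stands for 0 reads. Base calls were made with CASAVA 1.8, per the submitters' processing notes; for aligner, counting tool, use of strand and genome build, the names were not given in the sources used here. Nearly all gene lengths (99.97%) are multiples of 3, so RPKM are per kilobase of coding length. The 9 deposited columns of coverage were not used. The counts sum to 6.49 to 7.76 M reads per library, and 3 reads were taken as the floor of a gene with 0 reads.

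Of 9786 genes 8681 passed filterByExpr. Counts were scaled by TMM (factors 1.20 to 1.24 in dPoflbC, 0.680 to 0.906 in dCA) and fitted with edgeR 4.0.16 (R 4.3.3) by quasi-likelihood over all 9 libraries, 1 mean per strain, two-sided, with Benjamini-Hochberg adjustment. A call needs an adjusted p under 0.05 and a log2 fold change of at least 1 in size, and SE is the size of the log2 fold change over the square root of F. DESeq2 1.42.0, limma 3.58.1 on log2(RPKM + 1) and log2(RPKM + 5), other scalings, no filter, a replicate block and leaving out each library were alternatives. The fit was tested on simulated counts with known changes.

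The 42 gene lists are search words over the deposited descriptions and KEGG entries, and some words draw other genes (ribosome biogenesis drew a D-amino-acid oxidase, nitrogen use drew ceramidases, the cytoskeleton drew enoyl reductases). Members, lists and named genes were chosen with earlier results of these data known. Named genes are the 20 highest and 20 lowest described genes, up to 4 called members per list and direction with 10 RPKM or more and the 2 most abundant members of each list, the 10 most abundant genes per strain, genes silent in 1 strain and members of runs; others are said to be chosen after their values were seen. Intervals of ratios are exact binomial ones at 95% and cover counting error only. Whether antisense or near-identical genes share reads was not checked.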

Additional observations from a re-analysis of the deposited data

How the results depend on the processing

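Of the 133 called genes named in the text, 112 kept their call and direction in all 18 alternative settings. These genes were picked from the same data, many for a large change or a high level, so the share does not stand for all called genes. Leaving out 1 library at a time gave 956 to 1069 higher and 1269 to 1437 lower genes. The scaling decided the balance of directions. With no scaling 2272 genes were higher and 757 lower (median of all genes 0.51), with limma on RPKM 2079 were higher with a pseudocount of 1, and 686 and 582 were lower with pseudocounts of 1 and 5 (medians 0.49 and 0.39), and upper-quartile scaling moved the median to 0.15. With the adjusted p alone 2356 were higher and 2932 lower, and at a log2 fold change of 2 or more 329 and 564, with 18 runs. Without the 10 genes with most reads, the ratio of dCA to dPoflbC sums was 5.47 for xylan-degrading enzymes, 0.896 for vitamins and cofactors, 1.25 for fatty acid, glyoxylate and propionate breakdown and 1.05 for autophagy. The fatty acid synthase genes PDE_01217 and PDE_01220, not called, were above 0 with no scaling (0.14 and 0.30) and with limma at either pseudocount (0.15 and 0.30). In dCA replicate 2, 42 lower genes were at least 4-fold above the mean of the other dCA libraries. The causes of these shifts were not tested.

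The replicate numbers do not pair the samples: deviations of same-numbered dPoflbC and dCA libraries correlated at -0.144, -0.0512 and 0.12. With a replicate block 992 genes were higher and 1340 lower.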
